A study of Arabidopsis thaliana with 9 samples.

Results

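Root tips of the Arabidopsis thaliana stop1 mutant were set against wild-type root tips, both grown at low phosphate with iron and without added malate. The comparison rested on 2 libraries, 1 a side. A locus was kept where the 2 libraries together held at least 20 counts, and 20019 of the 33602 loci listed in each library met that rule. Of the other 13583 loci, 9570 had no count in either library.

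The tested tips came from seedlings labelled stop1 mutant, in the Col-0 background, on 5 µM phosphate, and the tips they were set against came from wild-type Col-0 seedlings on 5 µM phosphate. A second pair, stop1 and wild type on 1 mM phosphate (high phosphate), shared no library with the first. Tips of almt1 seedlings at both phosphate levels were used as a further mutant. All seedlings were 5 days past germination, on diluted medium with sucrose and agar, and the tips were 2 to 3 mm long. The labels name no allele of stop1 or almt1 and do not say how many seedlings went into a library. The series held 9 libraries, 1 for each of 9 groups, and its title calls the mutants insensitive to low phosphate. The remaining groups were all taken to be on 5 µM phosphate. They were wild type with 100 µM ferrozine (low iron), stop1 with 1 mM malate and almt1 with 1 mM malate. For stop1 with malate the sample title reads as high phosphate, while the sample characteristics give low phosphate, and the characteristics were followed. That library enters only the TMM scaling and the statements on all stop1 libraries. With 1 library a group there was no test and no p-value. Each ratio below is stop1 over wild type on the log2 scale, with an exact binomial 95% interval that covers counting error only, and the spread between independent growths of the plants is not known.

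STOP1 is a zinc-finger transcription factor best known from acid soils, where it is needed for tolerance of protons and aluminium. One of its targets, ALMT1, encodes a channel through which root cells release malate. At low phosphate the tip of a wild-type primary root collects iron and callose and stops growing, a local response that needs STOP1, ALMT1 and the ferroxidase LPR1, whereas a separate systemic response turns on phosphate transporters, phosphatases and lipid remodelling enzymes.

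Gene counts came to 29722171 in the stop1 library and 20619740 in the wild-type library at low phosphate. The wild-type library stood apart from the others. Reads with more than 1 alignment made up 44.9% of its reads, against 5.38% in stop1 at low phosphate and 4.19% to 14.3% in the other libraries. Mitochondrial loci took 1.01% of its gene counts, against 0.0513% in stop1. AT2G01021, a short locus at chr2:6571-6672 annotated only as an uncharacterized protein, stood at 127 CPM in stop1 and 4588 CPM in wild type. What its reads come from was not tested. CPM is counts per 1000000 of the TMM-scaled library total. No other wild-type library was grown at low phosphate with iron, so no value could be given without this one, and its part in the results was not tested. The 11 reference genes, among them actin, tubulin and ubiquitin genes, held none that was called, and their median ratio was 0.22. Meristem, root cap, root hair, endodermis and xylem markers were present in both libraries. Some were near equal: PLT1 stood at 13.2 CPM in stop1 and 12.9 CPM in wild type. SMB stood at 14.9 CPM in stop1 and 14.6 CPM in wild type, and EXPA7 at 128 CPM in stop1 and 123 CPM in wild type. Other markers of these tissues were called, among them WOX5 at -2.86, LRX1 at -2.18 and CASP5 at 2.31. The markers therefore do not show that the tips were alike in their cell types. The libraries do not keep the strand, so reads may come from a second, overlapping locus at ALS3, GDH1, PGIP1, AT4G00910, LPR1, PHR1, PLDP2, bHLH38, bHLH101, NRAMP1, FER1, AT4G08780, EXPA7, PLT3, RGF2, SHY2, CYCD1;1, CASP5, CESA4, CESA7, CESA8, BCAT4, RCA and ASN1 among the genes named below. These are bulk tips, so fewer cells of a type and less RNA per cell cannot be told apart.

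A locus was called when its 2 values lay at least 2-fold apart and the counting interval excluded equality. At low phosphate, 1683 loci (8.41%) were lower in stop1 than in wild type and 856 loci (4.28%) were higher, so 12.7% of the 20019 loci were called. Most loci lay close together: 72.2% were within 1.5-fold, and the median ratio was -0.03. The large differences lay mostly on the low side, with 382 loci called at least 8-fold lower in stop1 and 48 called at least 8-fold higher. Among the 15860 loci with at least 5 CPM in the higher library, 980 were lower and 510 were higher. At high phosphate the same genotypes differed at far fewer loci, with 2.85% of 19725 called. Of all calls at low phosphate, 33.7% were on the higher side; with the reference genes' median set to 0 instead, which lowers every ratio by 0.22, that share was 19.4%.

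**Figure D1:**
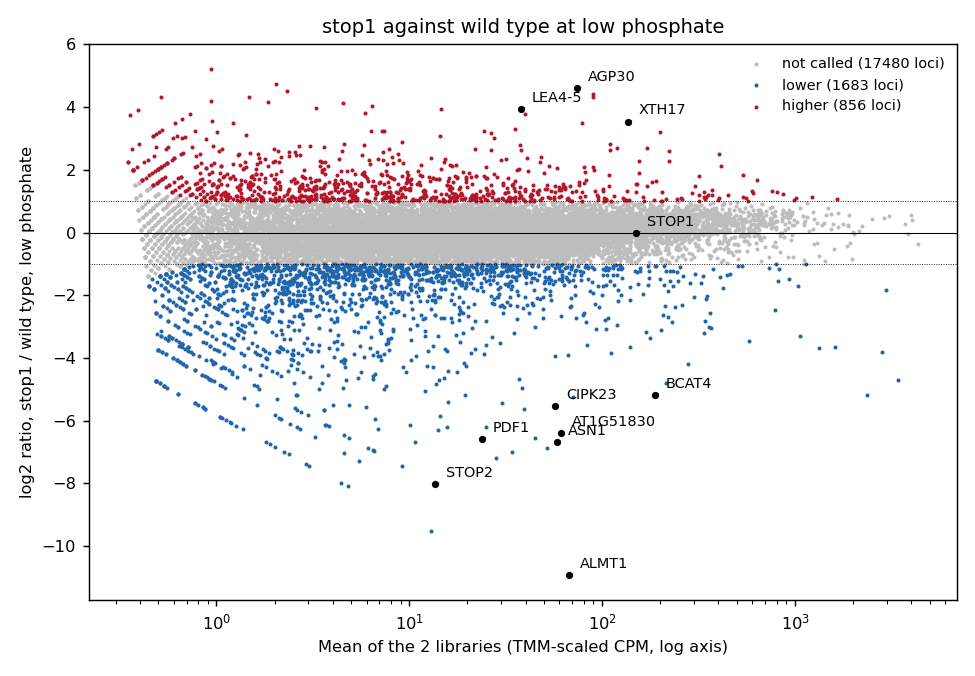
Log2 ratio of stop1 to wild type at low phosphate (vertical axis) against the mean of the 2 libraries in TMM-scaled CPM (horizontal log axis), 1 point for each of 20019 loci, with loci called lower in blue, called higher in red and not called in grey; dotted lines mark 2-fold. The 1683 lower loci reach down to ALMT1 at -10.92, while STOP1 sits at -0.01.

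STOP1 and its known targets were compared first. STOP1 transcript did not differ, with 150 CPM in stop1 and 150 CPM in wild type, a ratio of -0.01 (-0.07 to 0.06); counts over the whole gene cannot show a change inside the protein, so they do not check the genotype. ALMT1 was all but missing from stop1. It had 2 counts in stop1, or 0.0698 CPM, against 2750 counts, or 135 CPM, in wild type, a ratio of -10.92 (-13.96 to -9.06). At high phosphate ALMT1 stood at 0.0395 CPM in stop1 and 57.0 CPM in wild type. The almt1 libraries held 97.5 CPM at low and 41.7 CPM at high phosphate, so ALMT1 transcript was still present in almt1.

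STOP2, a zinc-finger gene closely related to STOP1, had no count in any of the 3 stop1 libraries of the series, against 27.3 CPM in wild type at low phosphate, and was at least 260-fold lower there. At high phosphate it was again without a count in stop1 and at 24.8 CPM in wild type. ALMT1 and STOP2 were the 2 loci, of all those listed, with at most 3 counts in each stop1 library and at least 1 CPM in each wild-type library. These libraries include the stop1 library with added malate and the wild-type library at low iron. CIPK23, a protein kinase that regulates nitrate, potassium and iron transport, had 2.41 CPM in stop1 and 111 CPM in wild type, a ratio of -5.53 (-5.90 to -5.18). Its ratio at high phosphate was -5.29, and almt1 held 93.1 CPM at low phosphate. Thus the ALMT1, STOP2 and CIPK23 levels set the stop1 libraries apart from wild type and from almt1 at both phosphate levels.

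The 300 bases upstream of the ALMT1 start are shown because this promoter is known to be bound by STOP1. They were read from the TAIR10.1 assembly with RefSeq gene starts, at chr1:2658302-2658601 on the plus strand, and the capitals mark the letters GGGGAGGGC, described in the literature as a STOP1 contact site.

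ALMT1: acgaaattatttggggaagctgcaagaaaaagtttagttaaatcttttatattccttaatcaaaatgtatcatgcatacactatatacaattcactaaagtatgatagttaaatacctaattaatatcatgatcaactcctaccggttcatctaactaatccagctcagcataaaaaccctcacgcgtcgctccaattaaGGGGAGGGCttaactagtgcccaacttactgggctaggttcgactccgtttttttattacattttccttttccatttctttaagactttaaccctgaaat

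On either strand, these 9 letters occur in the matching window of 6 of 32834 loci (0.0183%). The letters were searched for after the ALMT1 window had been seen. Only 2 of the 6 loci passed the count rule, ALMT1 and AT1G64572, and the ratio of AT1G64572 was 0.03. The windows of STOP2 and CIPK23 do not hold these exact letters, which says nothing of whether STOP1 binds there.

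A list of 20 STOP1 targets or aluminium tolerance genes was drawn up with earlier results of these data known, and all were measured. At low phosphate 12 were lower in stop1 and none was higher, with a median of -1.39 against -0.03 over all loci. Genes of organic acid and glutamate metabolism were among them. GDH1, a glutamate dehydrogenase, had 22.4 CPM in stop1 and 187 CPM in wild type, a ratio of -3.06 (-3.19 to -2.94). GDH2, a second glutamate dehydrogenase, had 489 CPM in stop1 and 1577 CPM in wild type. TDT, the vacuolar dicarboxylate (malate) transporter, had 4.29 CPM in stop1 and 28.5 CPM in wild type, and NADP-ME2, a malic enzyme, had 249.9 CPM in stop1 and 632 CPM in wild type. In almt1 at low phosphate GDH1 stood at 125 CPM, GDH2 at 1037 CPM and TDT at 22.9 CPM, closer to wild type than to stop1, while NADP-ME2, at 344 CPM, was closer to stop1.

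The polygalacturonase inhibitors PGIP1 and PGIP2, cell wall defence proteins, had ratios of -3.96 and -4.25. ALS1 and ALS3, transporters needed for aluminium tolerance, were not called, at -0.36 and -0.16. Nor were HAK5, a potassium transporter, at 0.08 and the nitrate transporter NRT1.1 at -0.06. At high phosphate 7 of 19 measured genes of this list were lower and 2 were higher, and the 2 higher were HAK5, with 3.20 CPM in stop1 and 0.662 CPM in wild type, and NADP-ME1, with 3.60 CPM in stop1 and 0.802 CPM in wild type.

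A receptor-like kinase gene outside that list had the same pattern. AT1G51830, annotated as a leucine-rich repeat protein kinase, had 1.43 CPM in stop1 and 121 CPM in wild type, a ratio of -6.40 (-6.88 to -5.95). At high phosphate it had 6.56 CPM in stop1 and 128 CPM in wild type, and almt1 held 109 CPM at low and 152 CPM at high phosphate. Its neighbour AT1G51840, a kinase-like gene, had 0.349 CPM in stop1 and 27.7 CPM in wild type at low phosphate, with 23.5 CPM in almt1. Other kinase genes of the same cluster, picked after their values were seen, differed less. AT1G51870, AT1G51850 and AT1G51890 were also called lower, with ratios of -1.77, -1.18 and -1.03 at low phosphate and -1.60, -1.12 and -1.13 at high phosphate. AT1G51790, AT1G51860, RHS6 and IOS1 were called at neither level, with ratios of -0.86, -0.79, -0.01 and 0.58 at low phosphate.

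Further loci lay low in stop1 at both phosphate levels and near wild type in almt1. AT5G38200, annotated as a class I glutamine amidotransferase-like protein, had 12.7 CPM in stop1 and 153 CPM in wild type at low phosphate, and 118 CPM in almt1. AT5G02480, an HSP20-like chaperone, had 19.7 CPM in stop1 and 165 CPM in wild type, and 159 CPM in almt1. AT2G41380, a methyltransferase-like gene, had 20.04 CPM in stop1 and 144 CPM in wild type, and 147 CPM in almt1. AT5G27920, an F-box gene, and MLO6, of a family of membrane proteins linked to powdery mildew, showed ratios of -2.43 and -3.01 at low phosphate and -2.58 and -3.75 at high phosphate. The almt1 library held 98.2 CPM of AT5G27920 and 52.3 CPM of MLO6 at low phosphate. Set directly against almt1 at low phosphate, where 3.38% of loci were called either way, the stop1 ratio was -3.22 for AT5G38200 and -3.01 for AT5G02480. It was -2.88 for AT2G41380, -2.66 for AT5G27920 and -2.41 for MLO6. These loci were named for being low in stop1 and near wild type in almt1, so their low ratios to almt1 follow from that choice. Other loci low in stop1 at both levels were low in almt1 too. The ratio of almt1 to wild type at low phosphate was -5.61 for AT4G01390 and -5.23 for LTP2.

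How far the genotype difference was shared by both phosphate levels was asked with the 4 libraries of the 2 pairs. Of the 1683 loci lower in stop1 at low phosphate, 1310 were measured at high phosphate. Of these, 195 were also lower there, against 1.8% of all loci at high phosphate, and 43 were higher. The other 1072 were not called at high phosphate, and 821 of the 1310 lay within 1.5-fold. Of the 856 loci higher at low phosphate, 831 were measured at high phosphate, where 42 were also higher, against 1.05% of all loci, 7 were lower and 683 lay within 1.5-fold. The median high-phosphate ratio was -0.23 for the loci lower at low phosphate and 0.07 for those higher. Loci lower at both levels had median ratios of -2.27 at low and -1.52 at high phosphate.

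The difference between the 2 ratios, low minus high phosphate, was called at 1282 loci (6.6% of 19412) in the lower direction and at 882 loci (4.54%) in the higher. ASN1, an asparagine synthetase gene turned on by darkness and sugar starvation, headed the lower ones: it had 1.12 CPM in stop1 and 115 CPM in wild type at low phosphate, but 5.02 CPM in stop1 and 4.08 CPM in the wild type at high phosphate. At the other end was AGP30, whose difference was 4.44 (4.17 to 4.71).

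**Figure D2:**
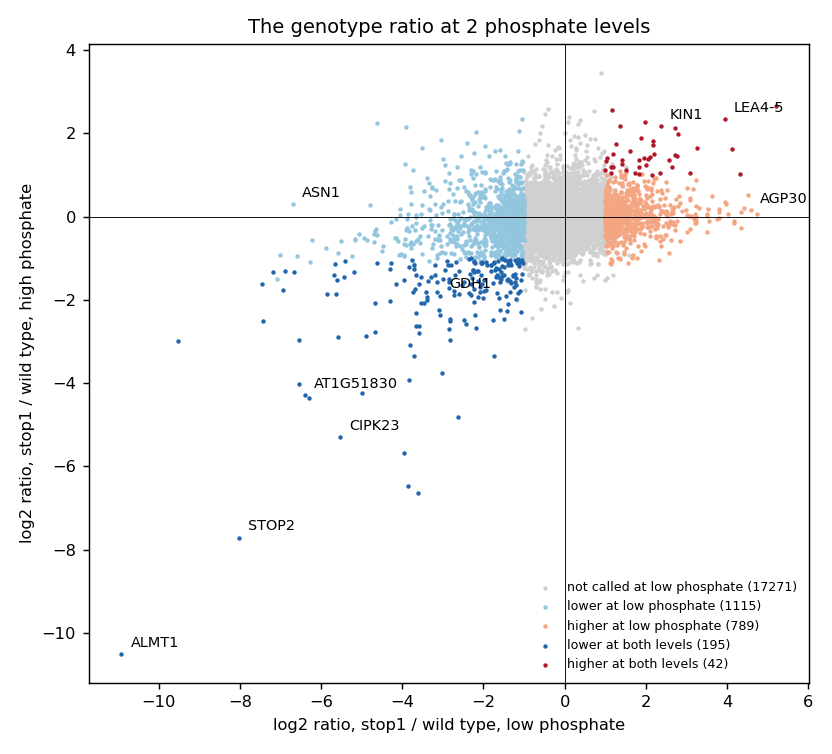
Log2 ratio of stop1 to wild type at high phosphate (vertical axis) against the same ratio at low phosphate (horizontal axis), 1 point for each of the 19412 loci measured in both pairs. ALMT1, STOP2, CIPK23 and AT1G51830 lie low on both axes, LEA4-5 and KIN1 high on both, and AGP30 and ASN1 lie along the horizontal axis; dark points are the 195 loci lower and 42 loci higher at both levels.

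Among the loci higher in stop1 at both levels were genes known for their response to abscisic acid and drying. LEA4-5, a protein that guards cells against water loss, had 71.3 CPM in stop1 and 4.61 CPM in wild type at low phosphate, a ratio of 3.95 (3.65 to 4.26), and 8.26 CPM in stop1 and 1.64 CPM in the wild type at high phosphate. KIN1, a cold- and abscisic acid-induced gene, had 67.9 CPM in stop1 and 13.1 CPM in wild type at low phosphate, and 68.3 CPM in stop1 and 15.2 CPM in the wild type at high phosphate. Its level in almt1 was 19.6 CPM at low phosphate, below stop1. Reads of KIN1 may be split with its near-identical neighbour.

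A list of abscisic acid and dehydration genes, drawn up after these values were seen, held 19 measured genes. Of these, 9 were higher and 1 was lower at low phosphate, and the median was 0.80. Setting the reference genes' median to 0 gave 7 higher and 1 lower. NCED3, which encodes the enzyme that limits abscisic acid synthesis, had 20.4 CPM in stop1 and 6.13 CPM in wild type. HAI1, a phosphatase of abscisic acid signalling, had 11.2 CPM in stop1 and 3.14 CPM in wild type, and the homeobox gene HB-12 had 10.3 CPM in stop1 and 2.26 CPM in wild type. The lower gene was ABI5, a transcription factor of abscisic acid responses, with a ratio of -1.33. Genes left off this list went lower as well, so its counts do not cover all genes of this kind. RD22, known for its response to drying, had 0.105 CPM in stop1 and 12.8 CPM in wild type at low phosphate. Its ratio was -6.94 at low and -1.76 at high phosphate. MYB96 and AT5G66780, annotated as a late embryogenesis abundant protein, were lower at low phosphate, at -1.45 and -1.43, and higher at high phosphate. NCED3, HAI1 and HB-12 were also higher at high phosphate, at 1.05, 1.03 and 1.81, whereas the ratio of RD29A, another drying-induced gene, was 1.48 at low phosphate and 0.89, not called, at high phosphate. MRN1, the marneral synthase of a triterpene gene cluster, had 10.2 CPM in stop1 and 1.47 CPM in wild type at low phosphate. At high phosphate it had 23.3 CPM in stop1 and 5.93 CPM in the wild type. In almt1 at low phosphate MRN1 stood at 4.86 CPM, between stop1 and wild type. NCED3 at 7.39 CPM, HAI1 at 4.52 CPM and HB-12 at 1.90 CPM in almt1 were nearer to wild type than to stop1. Set directly against almt1 at low phosphate, the stop1 ratio was 1.97 for LEA4-5, 1.79 for KIN1, 2.43 for HB-12 and 1.46 for NCED3.

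Many genes of the groups that follow had another shape: at low phosphate stop1 lay nearer to almt1 than to the single wild-type library. The almt1 library was called at 12.7% of 20094 loci against that same wild-type library, which the 2 mutants share, so their 2 sets of ratios are not independent. Between stop1 and almt1 at low phosphate the share was 3.38%, near the 2.85% between stop1 and wild type at high phosphate. Values of almt1 are given for a part of the genes. The counts of calls below stand against 8.41% of all loci lower and 4.28% higher at low phosphate. A few calls in a short list come near those shares and are no result about its genes. All the lists were drawn up with earlier results of these data known, so their counts describe these libraries and are not independent support.

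**Figure D3:**
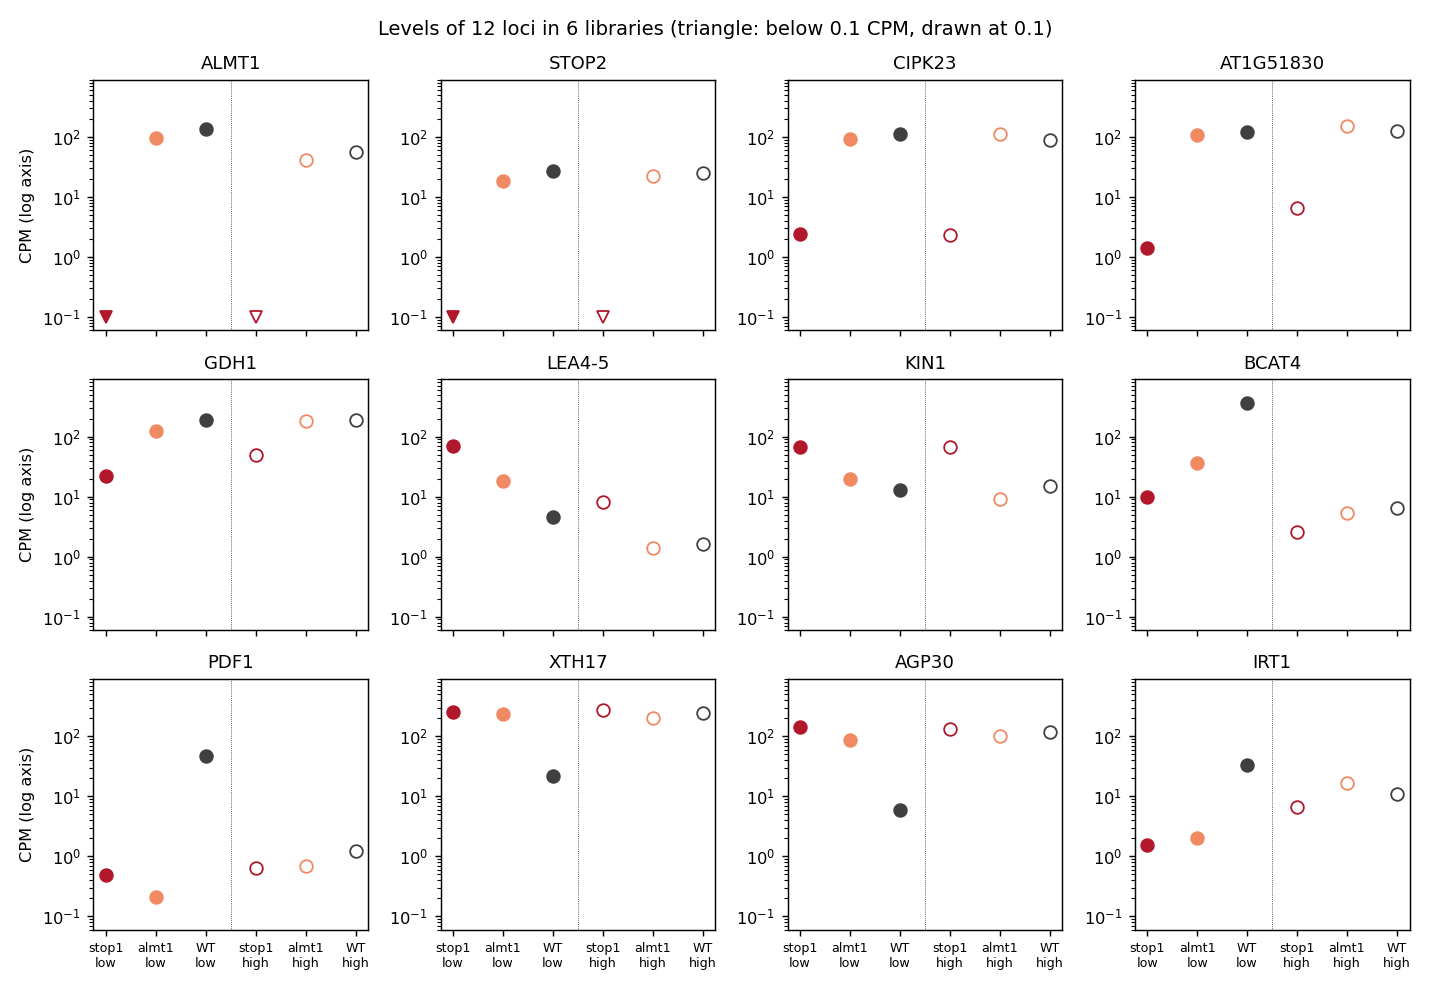
TMM-scaled CPM (vertical log axis) of 12 loci in 6 libraries, with stop1 in red, almt1 in orange and wild type in dark grey, filled at low phosphate and open at high phosphate; each point is 1 library. ALMT1, STOP2, CIPK23, AT1G51830 and GDH1 set both stop1 libraries apart, LEA4-5 and KIN1 are highest in stop1 within each phosphate level, and for BCAT4, PDF1, XTH17 and AGP30 the wild-type library at low phosphate stands apart from the other 5.

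Genes of the systemic phosphate starvation response were present at low phosphate in both genotypes, with a lower summed level in stop1. The list summed to 7386 CPM in stop1 and 11168 CPM in wild type at low phosphate, and to 1816 CPM in stop1 and 1825 CPM in the wild type at high phosphate. Of 38 measured genes, 12 were lower in stop1 and none was higher, and the median was -0.76. PHT1;2, a high-affinity phosphate transporter, had 40.04 CPM in stop1 and 159 CPM in wild type at low phosphate, against 0.119 CPM in stop1 and 0.174 CPM in the wild type at high phosphate; reads of its near-identical relatives may be split between copies. PS2, a pyrophosphatase, had 222 CPM in stop1 and 592 CPM in wild type, a ratio of -1.42 (-1.46 to -1.37). AT1G17710, named PEPC1 in RefSeq and known as a phosphoethanolamine and phosphocholine phosphatase, had 463 CPM in stop1 and 1003 CPM in wild type, against 0.514 CPM in stop1 and 0.453 CPM in the wild type at high phosphate.

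The lipid remodelling genes among them were MGD3, a galactolipid synthase, with 59.5 CPM in stop1 and 153 CPM in wild type, PLDP2, a phospholipase D, with 42.2 CPM in stop1 and 95.2 CPM in wild type, and NPC4, a phospholipase C, with 135 CPM in stop1 and 282 CPM in wild type. PAP23, a purple acid phosphatase, had the largest ratio of the list, with 0.349 CPM in stop1 and 6.67 CPM in wild type. The transporters PHT1;5, PHT1;7, PHT1;8 and PHT1;9 had ratios between -1.61 and -1.18, and PPCK1, a kinase of phosphoenolpyruvate carboxylase, one of -1.22. The early reporter IPS1, a noncoding RNA, was not called, with 161 CPM in stop1 and 224 CPM in wild type, nor was SPX1, a phosphate sensor, with 720 CPM in stop1 and 1233 CPM in wild type. PHR1, the transcription factor that drives these genes, had a ratio of -0.07. In almt1 at low phosphate PHT1;2 stood at 55.6 CPM and PS2 at 149 CPM, also under wild type.

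PHR1 binds the P1BS element, written GNATATNC, and the windows upstream of PAP23 and PHT1;7 are shown with it in capitals, since neither gene had a count in stop1 or wild type at high phosphate and both were lower in stop1 at low phosphate. Both were read from TAIR10.1 on the minus strand, at chr4:7958920-7959219 for PAP23 and chr3:20250949-20251248 for PHT1;7.

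PAP23: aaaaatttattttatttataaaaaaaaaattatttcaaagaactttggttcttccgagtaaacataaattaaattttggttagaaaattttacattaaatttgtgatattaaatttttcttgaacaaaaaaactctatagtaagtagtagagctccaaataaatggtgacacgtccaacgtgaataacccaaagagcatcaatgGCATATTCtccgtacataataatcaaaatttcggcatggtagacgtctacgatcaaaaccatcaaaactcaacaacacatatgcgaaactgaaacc

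PHT1;7: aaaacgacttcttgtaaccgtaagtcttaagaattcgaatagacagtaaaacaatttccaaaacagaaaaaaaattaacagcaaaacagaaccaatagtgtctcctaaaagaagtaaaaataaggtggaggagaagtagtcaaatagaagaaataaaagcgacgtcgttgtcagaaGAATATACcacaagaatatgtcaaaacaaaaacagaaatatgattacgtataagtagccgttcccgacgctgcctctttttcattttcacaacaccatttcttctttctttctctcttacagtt

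P1BS was found on either strand in 12 of the 38 windows of this list and in 7 of the 12 of the lower genes, against 6.29% of all 32834 windows. It was in 8.21% of the windows of loci lower in stop1 and 6.54% of those higher. Some matches read GAATATTC, as in NPC4 and PS2, which is also a heat shock element, written GAANNTTC and found in 11.2% of all windows. A match is a description of the letters and not a shown binding site.

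The local response genes held no call, which in so short a list is near the share over all loci. Of the 12 genes that include the ferroxidases LPR1 and LPR2, the callose synthases and the peptide CLE14 with its receptors, 0 were higher and 0 were lower, and the median was -0.31; by the same rule 12.7% of all loci were called. LPR1 had 5.24 CPM in stop1 and 9.66 CPM in wild type, a ratio of -0.88 (-1.20 to -0.57). GSL05, the callose synthase of wounding and pathogen attack, had 48.1 CPM in stop1 and 61.5 CPM in wild type, and CLE14 had 7.85 CPM in stop1 and 6.82 CPM in wild type. With the reference genes' median set to 0, 2 of the 12 were lower.

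A part of the iron acquisition genes was lower in stop1. Of 33 measured genes, 12 were lower, 21 were not called and none was higher, and the median was -0.64. IRT1, the main iron importer of the root surface, had 1.54 CPM in stop1 and 33.8 CPM in wild type, a ratio of -4.46 (-4.94 to -4.02). FRO2, the reductase that feeds it, had 3.98 CPM in stop1 and 26.1 CPM in wild type. CYP82C4, a coumarin hydroxylase, had no count in stop1 and 9.76 CPM in wild type, so it was at least 93.2-fold lower. At high phosphate it was at 0.435 CPM in stop1 and 7.08 CPM in wild type.

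The transcription factors bHLH38, bHLH39 and bHLH101, which partner FIT in turning on iron uptake, had ratios of -2.51, -2.24 and -1.71, and the nicotianamine synthase NAS1 one of -2.80. FIT itself (FRU in RefSeq) was alike, at 31.3 CPM in stop1 and 31.4 CPM in wild type. NRAMP1, a manganese and iron importer, was lower at both phosphate levels, with ratios of -1.35 at low and -1.14 at high phosphate. The almt1 library was also under wild type at low phosphate, with 2.05 CPM for IRT1 and 6.91 CPM for FRO2. Of 10 measured iron storage genes 1, the vacuolar iron exporter NRAMP3, was lower. FER1, a ferritin that is made when iron is plentiful, had 443 CPM in stop1 and 301 CPM in wild type and was not called.

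**Figure D4:**
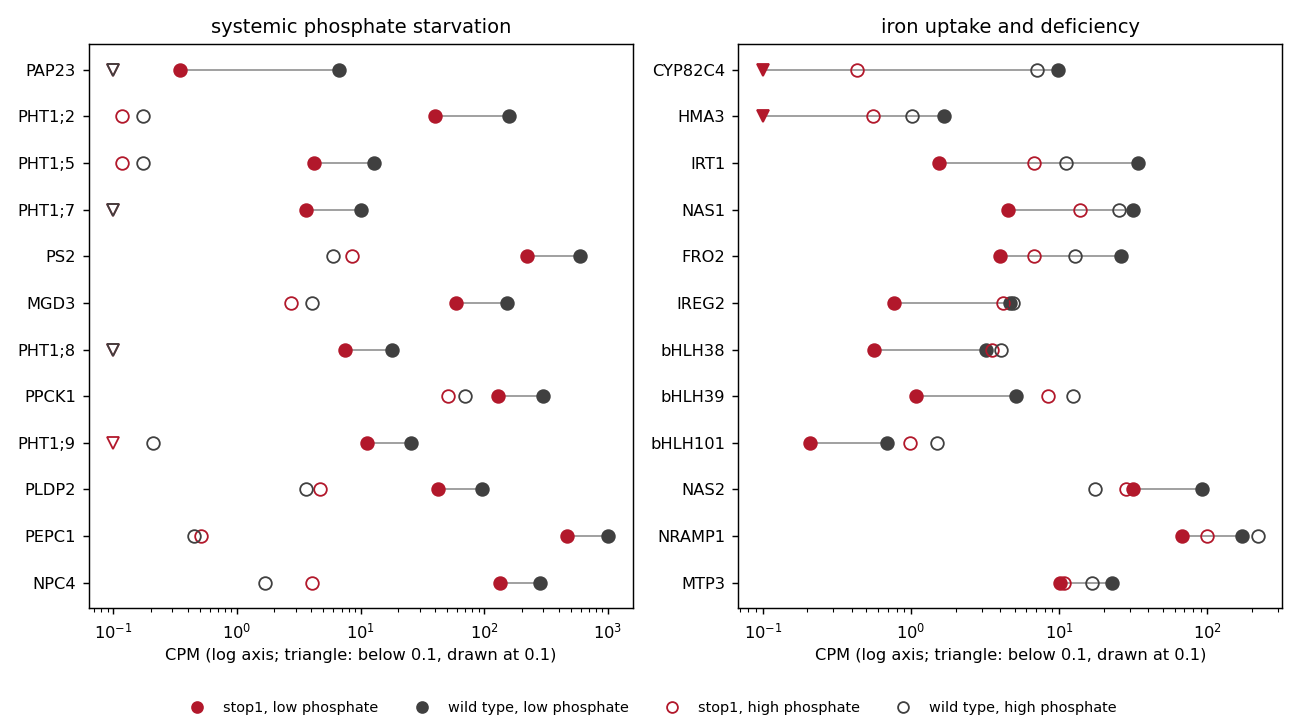
TMM-scaled CPM (horizontal log axis) of the 12 phosphate starvation genes and the 12 iron uptake genes lower in stop1, 1 gene a row, with stop1 in red and wild type in dark grey, filled at low and open at high phosphate; grey lines join the low-phosphate pair and triangles mark values under 0.1 CPM. Every red filled point lies left of its grey partner; the phosphate genes lie above their high-phosphate levels in both genotypes, while IRT1 in stop1 lies under its high-phosphate level.

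Aliphatic glucosinolate genes differed most of all the lists by median. These genes turn methionine into sulfur-rich defence compounds. Of 21 measured genes, 18 were lower in stop1 and none was higher, with a median of -2.39. MAM1, a chain elongation enzyme, had 3.63 CPM in stop1 and 137 CPM in wild type. BCAT4, an aminotransferase that starts the chain elongation, had 10.02 CPM in stop1 and 365 CPM in wild type, a ratio of -5.19 (-5.36 to -5.02). CYP83A1, a cytochrome P450 of the core pathway, had 20.4 CPM in stop1 and 258 CPM in wild type.

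MYB28, the regulator of the pathway, differed less, with 26.7 CPM in stop1 and 54.0 CPM in the wild type. At high phosphate 2 of 19 were lower, BCAT4 and CYP83A1, with a median of -0.05. In almt1 at low phosphate MAM1 stood at 10.9 CPM, BCAT4 at 35.8 CPM and CYP83A1 at 56.5 CPM, between stop1 and wild type. Of 10 indole glucosinolate and camalexin genes, 3 were lower: the regulator MYB51, GGP1 and PAD3, the last enzyme of camalexin synthesis.

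Cell wall genes were called in both directions. Arabinogalactan proteins, heavily sugared wall proteins, were among the highest loci in stop1 relative to wild type: AGP30 had 143 CPM in stop1 and 5.89 CPM in wild type, a ratio of 4.60 (4.34 to 4.87), and AGP14 had 358 CPM in stop1 and 38.3 CPM in wild type. Counted as a family, which was done after these values were seen, 12 of 26 measured were higher and 1, AGP5, was lower. Setting the reference genes' median to 0 gave 9 higher and 1 lower. In almt1 AGP30 stood at 87.6 CPM and AGP14 at 318 CPM. At high phosphate none of the 26 was called.

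In the XTH family, enzymes that cut and rejoin xyloglucan in growing walls, 7 of 24 were higher and 1 was lower, with a median of 0.43. Setting the reference genes' median to 0 gave 6 higher and 3 lower, with a median of 0.21. XTH17 had 250.5 CPM in stop1 and 21.6 CPM in wild type, a ratio of 3.54 (3.40 to 3.68), and 233 CPM in almt1. XTH21 had 48.8 CPM in stop1 and 6.08 CPM in wild type. The lower one was TCH4, a touch-induced member, with 5.41 CPM in stop1 and 31.5 CPM in wild type. Of 19 expansins, proteins that loosen walls, 3 were higher, led by EXPB1 with 45.7 CPM in stop1 and 7.41 CPM in wild type, and 6 were lower, led by EXPA12 with 1.19 CPM in stop1 and 29.2 CPM in wild type.

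Of 55 class III peroxidases, wall enzymes that use hydrogen peroxide to cross-link or loosen polymers, 19 were lower and 7 were higher. The lower ones included AT4G08780, with 0.524 CPM in stop1 and 67.5 CPM in wild type, PRX52, with 0.663 CPM in stop1 and 49.3 CPM in wild type, and AT4G36430, with 15.05 CPM in stop1 and 414 CPM in wild type. AT4G08780 has a near copy beside it, Prx37, which had 33.5 CPM in stop1 and 305 CPM in wild type. On the higher side AT3G01190 had 685 CPM in stop1 and 120 CPM in wild type. In almt1 at low phosphate these 5 genes lay nearer to stop1 than to wild type, at 0.452, 0.0603, 10.01, 53.9 and 571 CPM in the order named. The lipid-transfer-like genes AT5G46900 and AT5G46890 and the pectin methylesterase inhibitor gene AT4G25250 were also among the highest, with 171, 170 and 74.0 CPM in stop1 and 8.04, 8.44 and 5.35 CPM in wild type; AT5G46900 and AT5G46890 are much alike and may share reads.

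Genes of epidermal identity and the cuticle, which in shoots mark the outer cell layer, lay mostly lower in stop1. Of 21 measured genes of a list drawn up after the values were seen, 12 were lower in stop1 and 2 were higher, with a median of -1.60. PDF1 had 0.489 CPM in stop1 and 47.1 CPM in wild type. PDF2, a homeodomain factor of the epidermis, had 2 counts in stop1 and 10.8 CPM in wild type, a ratio of -7.28 (-10.33 to -5.41). KCS6, a wax enzyme, had no count in stop1 and 5.25 CPM in wild type, or 50.1-fold lower with that 0 read as 3 counts. Levels in almt1 at low phosphate were 0.211 CPM for PDF1, 0.121 CPM for PDF2 and 0.0603 CPM for KCS6. The wax genes CER1 and LACS1 went the other way, at 2.03 and 1.26. So did CER4, a wax synthesis gene left off this list, at 3.23.

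Shoot photosynthesis genes were read as a measure of shoot tissue. The 12 genes of that list summed to 37.9 CPM in stop1 and 56.4 CPM in wild type at low phosphate, and to 111 CPM in stop1 and 186 CPM in the wild type at high phosphate. Of the 6 measured, 2 were lower in stop1: the activase RCA and RBCS1A, a small subunit of Rubisco. LHCB2.2, a light-harvesting protein, had no count in either library at low phosphate. The part of shoot or of other tissue in the epidermal values was not tested.

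Among jasmonate, touch and low-oxygen genes, more were called lower in stop1 than higher. Of 24 measured jasmonate genes, 9 were lower and none was higher, with a median of -0.66; 5 of them were JAZ repressors, which jasmonate itself induces. JAZ10 had 1.43 CPM in stop1 and 14.6 CPM in wild type, and LOX3, a lipoxygenase of jasmonate synthesis, had no count in stop1 and 1.91 CPM in wild type, so it was at least 18.3-fold lower. The G-box, written CACGTG and bound by jasmonate-linked MYC factors, was in 0 of the 9 windows of the lower genes, 4 of the 24 measured, and 6.44% of all windows.

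Of 17 touch and early stress genes, 6 were lower and 1 was higher. TCH3, a calmodulin-like protein, had 56.6 CPM in stop1 and 405 CPM in wild type, and the transcription factor WRKY46 had 0.524 CPM in stop1 and 4.17 CPM in wild type. CML37, another calmodulin-like gene, was the higher one, with 4.89 CPM in stop1 and 1.57 CPM in wild type. In almt1 JAZ10 stood at 1.90 CPM and TCH3 at 51.6 CPM, near stop1.

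Low-oxygen genes differed in part at both phosphate levels. Of 12, 7 were lower and 1 was higher at low phosphate, and 3 were lower and 1 was higher at high phosphate. PCO1 and PCO2, oxygen-sensing cysteine oxidases, had ratios of -3.71 and -2.81 at low phosphate and -1.26 and -2.50 at high phosphate, and the regulator LBD41 had -2.53 and -1.66. PDC1, a pyruvate decarboxylase of fermentation, was the higher one at both, with 90.13 CPM in stop1 and 43.8 CPM in wild type at low phosphate. With the reference genes' median set to 0, PDC1 lost its call and 7 were still lower. PDC1 had 51.8 CPM in almt1 at low phosphate, near wild type, and LBD41 had 5.19 CPM there, against 2.06 CPM in stop1 and 11.9 CPM in wild type. Of 11 heat genes, 2 were higher and 2 were lower, but with the reference genes' median set to 0 none was higher and 3 were lower.

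The regulators of the root stem cell niche were called in both directions. Of 24 genes, 4 were lower and 3 were higher; with the reference genes' median set to 0, 4 were lower and 1 was higher, and PIN4 and RGF2 were no longer called. WOX5, which marks the quiescent centre, had 0.977 CPM in stop1 and 7.11 CPM in wild type, a ratio of -2.86 (-3.50 to -2.27), against 2.29 CPM in stop1 and 1.78 CPM in the wild type at high phosphate. The AP2-type factors PLT3 and BBM had ratios of -1.43 and -1.38, and the peptide gene RGF1 of -3.30. PLT1 and SCR, also factors of the niche, were not called, at 0.03 and 0.28. SHY2, a repressor of auxin response, had 15.4 CPM in stop1 and 3.29 CPM in wild type; PIN4, an auxin exporter, and RGF2, a peptide gene, were higher at 1.12 and 1.14. In almt1 at low phosphate WOX5 stood at 1.24 CPM and SHY2 at 16.9 CPM.

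Cell cycle genes differed little: of 47, 2 were higher and 1 was lower, with a median of 0.33, while with the reference genes' median set to 0 it was 1 higher and 2 lower. The largest was CYCD1;1, a D-type cyclin, with 34.5 CPM in stop1 and 9.96 CPM in wild type; the mitotic cyclin CYCB1;1 was not called, with 19.6 CPM in stop1 and 16.4 CPM in wild type. None of 8 root cap genes was called, where 12.7% of all loci were. Of 27 genes of the endodermis, suberin and xylem, 10 were higher and 3 were lower, with a median of 0.68. The Casparian strip genes CASP4 and CASP5 had ratios of 1.105 and 2.31, and the cellulose synthases of the secondary wall, CESA4, CESA7 and CESA8, had 1.29, 1.11 and 1.11. FAR1, a reductase that makes fatty alcohols of suberin, was lower, with 1.33 CPM in stop1 and 20.5 CPM in wild type. With the reference genes' median set to 0, 4 of the 27 were higher and 3 were lower.

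Root hair genes were mostly not called, and their counts lay near the shares over all loci, 8.41% lower and 4.28% higher. Of 19, 2 were lower and 1 was higher: LRX1 and LRX2, wall proteins of growing hairs, had 43.5 and 16.6 CPM in stop1 and 197 and 49.9 CPM in wild type, and the regulator RSL1 was higher at 1.72. Among the 9 measured ALMT channels, ALMT12, the anion channel of guard cells, was higher, with 13.4 CPM in stop1 and 1.42 CPM in wild type, and so was AT5G46610 at 1.63. AT4G00910 and AT1G08440 were lower along with ALMT1, at -2.53 and -2.15. In almt1 at low phosphate ALMT12 stood at 12.5 CPM and AT4G00910 at 3.59 CPM, near stop1, while ALMT1 did not follow that pattern.

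**Figure D5:**
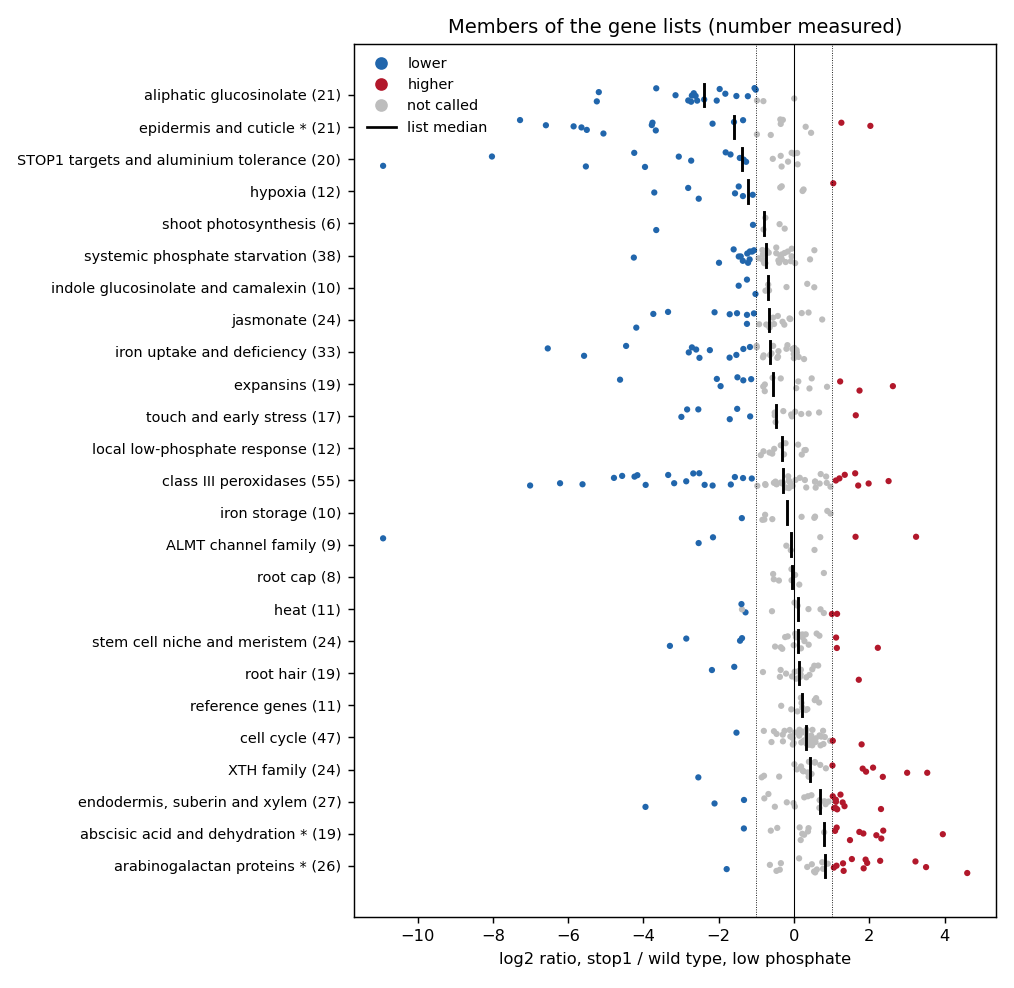
Log2 ratio of stop1 to wild type at low phosphate (horizontal axis) for the measured members of 25 gene lists, 1 point a gene. Rows are ordered by median, with the number measured in brackets. A star marks the 3 lists added after the values were seen, and the other 22 were chosen with earlier results of these data known. Lower genes are in blue, higher in red and not called in grey, with a bar at the list median. Aliphatic glucosinolate genes have the lowest median at -2.39 and arabinogalactan proteins the highest at 0.83.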

How the data were processed

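RNA of 9 root-tip libraries was measured by non-strand-specific TruSeq sequencing, per the labels' protocols. The deposited files hold an unnormalized count for each locus, which the authors made with TopHat2 and HTSeq on TAIR10, per the submitters' processing notes; versions are not given in the sources used here. The 5 summary lines a library were left out. Counts were scaled with edgeR 4.0.16 (TMM over 9 libraries; R 4.3.3), and ratios, exact binomial 95% intervals and calls were computed in Python 3.11.15 with scipy 1.17.1, after a check on simulated data. A count of 0 was read as 3 counts, 0.105 CPM in stop1 and 0.147 CPM in wild type at low phosphate. A fold given for a count of 0 rests on that reading and is not a limit of the 95% interval. The difference of 2 ratios had 0.5 added to each count.

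Members and gene lists (22, plus 3 later) were chosen with earlier results of these data known. The rule for naming genes took STOP1 and ALMT1, the 15 highest and 15 lowest called loci, up to 5 called members a list, and the 5 highest and 5 lowest differences; members that were not called, loci lower or higher at both phosphate levels, and other named genes were chosen after their values were seen. Names came from TAIR10.1 RefSeq, which matched 19914 loci. Libraries do not keep the strand, so 5612 kept loci that overlap another are uncertain. Alternatives were DESeq2 1.42.0 size factors, other scalings, count minimums, folds and sets of loci.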

Additional observations from a re-analysis of the deposited data

Results flagged for a closer look

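Some loci were called in opposite directions at the 2 phosphate levels; that difference was not tested, since each group was 1 library. There were 43 loci lower in stop1 at low phosphate and higher at high phosphate, of 1310 lower loci measured at both. Over all loci, 1.05% were higher at high phosphate. AT5G52670, annotated as a copper transport protein, had 0.419 CPM in stop1 and 10.4 CPM in wild type at low phosphate, and 0.830 CPM in stop1 and 0.174 CPM in the wild type at high phosphate. PYD4, of pyrimidine breakdown, had 0.803 CPM in stop1 and 12.1 CPM in wild type at low phosphate, and 4.82 CPM in stop1 and 1.08 CPM in the wild type at high phosphate. AT3G47480, a calcium-binding EF-hand gene, had 4.75 CPM in stop1 and 54.4 CPM in wild type at low phosphate, and 2.17 CPM in stop1 and 0.697 CPM in the wild type at high phosphate. NPC4, the phospholipase C, was among the 43 as well. In almt1 at low phosphate PYD4 stood at 0.844 CPM, AT5G52670 at 0.211 CPM and AT3G47480 at 2.29 CPM, nearer to stop1 than to the single wild-type library. At high phosphate AT5G52670 rested on 21 counts in stop1 and 5 in wild type, and AT3G47480 on 55 in stop1 and 20 in wild type. PYD4 rested on 122 counts in stop1 and 31 in wild type there.

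There were 7 loci higher in stop1 at low phosphate and lower at high phosphate, of 831 higher loci measured at both. Over all loci, 1.8% were lower at high phosphate, so these 7 are no more than that share gives. UMAMIT17, an amino acid transporter-like gene, had 12.8 CPM in stop1 and 5.00 CPM in wild type at low phosphate, and 78.0 CPM in stop1 and 158 CPM in the wild type at high phosphate. MOT1, a molybdate transporter, had 4.78 CPM in stop1 and 2.16 CPM in wild type at low phosphate, and 4.07 CPM in stop1 and 8.96 CPM in the wild type at high phosphate.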

How the results depend on the processing

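With DESeq2 size factors, library totals, or TMM from each pair alone, every count of calls stayed within 1.5 times its reported value and none of the 117 named loci moved beyond its counting interval. With the reference genes' median set to 0, an alternative chosen after seeing the data, 556 loci were higher, 24 list members were higher (39 as reported), and 24 of the 117 named loci moved; none changed direction. Requiring 100 counts left 1117 loci lower. At 1.5-fold, 2042 loci were higher and 3124 lower. At 4-fold, 183 were higher and 683 lower, 4 were higher and 41 lower at both phosphate levels, and the difference between levels was called higher at 172 and lower at 355. Dropping overlapping or organelle loci, or the count minimum, left the counts of calls within 1.5 times; without overlapping loci 711 were higher and 1377 lower. No paired analysis was possible because each group has 1 library and the labels give no replicate numbers. At these depths a locus at 0 was read as 0.105 CPM in stop1.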

Other observations

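Some of the highest and lowest loci at low phosphate lay outside the lists. BR6OX1, a brassinosteroid synthesis enzyme, had 10.9 CPM in stop1 and 0.785 CPM in wild type, a ratio of 3.80 (3.08 to 4.62), and 11.1 CPM in almt1. CER4, an alcohol-forming reductase of wax synthesis, had 44.1 CPM in stop1 and 4.71 CPM in wild type, and 41.0 CPM in almt1. GRP5, a glycine-rich protein, had 0.384 CPM in stop1 and 56.2 CPM in wild type. LCR67, a defensin-like peptide, had no count in stop1 and 13.0 CPM in wild type, or 125-fold lower with that 0 read as 3 counts.

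AT4G33720, annotated as a CAP family protein, had a single count in stop1 at low phosphate and 25.8 CPM in wild type, a ratio of -9.53 (-14.84 to -7.05). At high phosphate it had 0.0790 CPM in stop1 and 0.627 CPM in wild type, and in almt1 it had 2.84 CPM at low and 11.97 CPM at high phosphate. PPCK2, a second kinase of phosphoenolpyruvate carboxylase, was lower in stop1 at both levels, at -1.67 and -1.83, and AGT, a photorespiratory aminotransferase, at -2.13 and -1.93.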
